A study of Mus musculus with 28 samples.

Results

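Interferon-stimulated genes were followed in mouse skin through the healing of an excisional wound. The set held 40 genes fixed by name, of which 38 had a row in the table of raw counts (29068 gene symbols), and all 38 passed the filter on low counts that left 18107 genes to test. The other 2, Mx1 and Mx2, were not analysed here. By role, the 38 were 4 transcription factors (Irf1, Irf7, Irf9, Stat2), 3 genes of RNA sensing and its control (Dhx58, Ifih1, Trim25), 3 of the ISG15 system (Isg15, Usp18, Herc6), 5 of the OAS family (Oas1a, Oas2, Oas3, Oasl1, Oasl2), 11 antiviral effectors (Ifit1, Ifit2, Ifit3, Rsad2, Cmpk2, Bst2, Rtp4, Ifi44, Xaf1, Ifi27l2a, Ifi35), 2 PARP family genes (Parp9, Parp14), 7 interferon-inducible GTPases (Gbp2, Gbp3, Gbp5, Gbp7, Iigp1, Irgm1, Igtp) and 3 genes of antigen processing (Psmb8, Psmb9, Tap1).

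Interferons are secreted proteins that bind receptors on the cell surface and activate JAK kinases, which phosphorylate STAT proteins. Type I and type III interferons act mainly through a complex with STAT2 and IRF9 that binds interferon-stimulated response elements (ISRE), whereas interferon gamma acts mainly at gamma-activated sites (GAS). In skin, interferon-stimulated genes are known for defence against viruses and bacteria, and they are also induced when nucleic acids from damaged cells are sensed.

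Total RNA of the wound site was sequenced in 28 libraries, 4 on each of Day0, Day3, Day5, Day7, Day10, Day12 and Day14. All groups were wild-type MLKL+/+ littermates on the C57BL/6J background, 8 weeks old, and the groups differed in time. The study used male and female mice. On the wound days the tissue came from a wound made on the back by a 6 mm punch and left to heal without treatment. The sample of a wound day held the entire wound site with scab and margins. The labels name the earliest time point Day0 and treat it as the control, while the study's methods count the day of injury as day 1. The labels give Day0 the same treatment as the other days and do not say whether it was unwounded skin or a fresh wound, so what a difference from Day0 compares is uncertain. The design text speaks of 5 repeats per time point, and 4 were analysed. The labels do not say whether the 4 libraries of a day came from separate mice, so p-values measure the spread between these libraries.

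Gene counts summed to 36706513 in the shallowest library and 40655764 in the deepest. Markers of epidermal keratinocytes and of fibroblasts, the main cells of skin, were present in every library, with summed levels from 4250 to 9261 CPM (counts scaled to library totals with TMM factors) and from 14282 to 59638 CPM. Xist, a transcript of female cells, was at most 0.294 CPM in any library. The 4 Day0 libraries differed more among themselves than those of any wound day (biological coefficient of variation over all genes 26.5%, against 5.77% to 10.8%). Fibroblast markers summed to 24995, 55955, 53718 and 14282 CPM in Day0 libraries 1 to 4, and skeletal muscle markers to 24183, 14996, 15306 and 25366 CPM. Libraries 1 and 4 were thus low in fibroblast and high in muscle markers, and every comparison with Day0 below rests on these 4 libraries. Comparisons between wound days do not use the Day0 levels, although the fit of all 28 libraries shares its estimate of spread with them. In bulk RNA, fewer cells of a type and less RNA per cell cannot be told apart.

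Start sites of 30 of the 40 genes had a RefSeq promoter window (GRCm38.p6, 250 bases before to 50 after the start, 34 windows), and these were searched on both strands for the ISRE core (GAAA, any 2 bases, GAAA) and the GAS letters TTCNNNGAA. The ISRE letters were in the windows of 15 of the 30 genes (50%), against 3.99% of 27025 genes in the table, and the GAS letters in those of 9 (30%), against 9.55%. All 6 GTPases with a window held the ISRE letters, whereas none of the 3 antigen processing genes did. The stretches of 4 genes are shown because they span the patterns described below, from a gene with a large return on Day12 to genes without a called return. They end at the base before the start and run 5′ to 3′ along the gene's strand, with ISRE or GAS letters in capitals.
Ifit1, chr19:34640739-34640888, plus strand: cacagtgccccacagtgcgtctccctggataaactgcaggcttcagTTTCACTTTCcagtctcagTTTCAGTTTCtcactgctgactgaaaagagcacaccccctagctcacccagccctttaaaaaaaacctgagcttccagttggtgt
Isg15, chr4:156200819-156200968, minus strand: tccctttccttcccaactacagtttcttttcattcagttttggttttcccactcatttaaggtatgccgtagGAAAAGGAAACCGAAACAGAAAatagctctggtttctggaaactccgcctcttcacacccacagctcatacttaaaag
Gbp2, chr3:142620513-142620662, plus strand: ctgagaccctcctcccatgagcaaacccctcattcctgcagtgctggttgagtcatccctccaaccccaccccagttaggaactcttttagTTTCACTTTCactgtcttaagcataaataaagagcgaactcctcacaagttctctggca
Irf1, chr11:53769864-53770013, plus strand: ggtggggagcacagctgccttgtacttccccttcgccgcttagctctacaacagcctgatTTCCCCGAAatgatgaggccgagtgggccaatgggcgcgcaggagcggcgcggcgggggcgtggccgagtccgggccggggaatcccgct
Ifit1 held 2 ISRE matches, Isg15 3 overlapping ones, Gbp2 1, and Irf1 a GAS match with no ISRE match in this stretch. A match of letters is a description and was not tested as a binding site.

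Over the time course the mean level of the 38 genes was high on Day3, lowest on Day10, higher again on Day12 and lower on Day14, with exceptions among single genes given below. The mean log2 CPM over the 38 genes was 5.31, 4.68, 4.71 and 5.34 in the Day0 libraries and 5.78 to 5.87 on Day3. It was 5.64 to 5.69 on Day5, 5.21 to 5.25 on Day7 and 4.46 to 4.51 on Day10. It was then 5.23 to 5.35 on Day12 and 4.88 to 5.02 on Day14. Every Day10 library was below every library of the other wound days and of Day0, and every Day12 library was above those of Day10 and Day14. By day means, 28 of the 38 genes were highest on Day3, 3 on Day5 (Usp18, Rsad2, Ifit2), 4 on Day12 (Ifit1, Ifit3, Gbp3, Cmpk2) and 3 on Day0 (Gbp2, Gbp5, Igtp), and 33 were lowest on Day10.

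**Figure D1:**
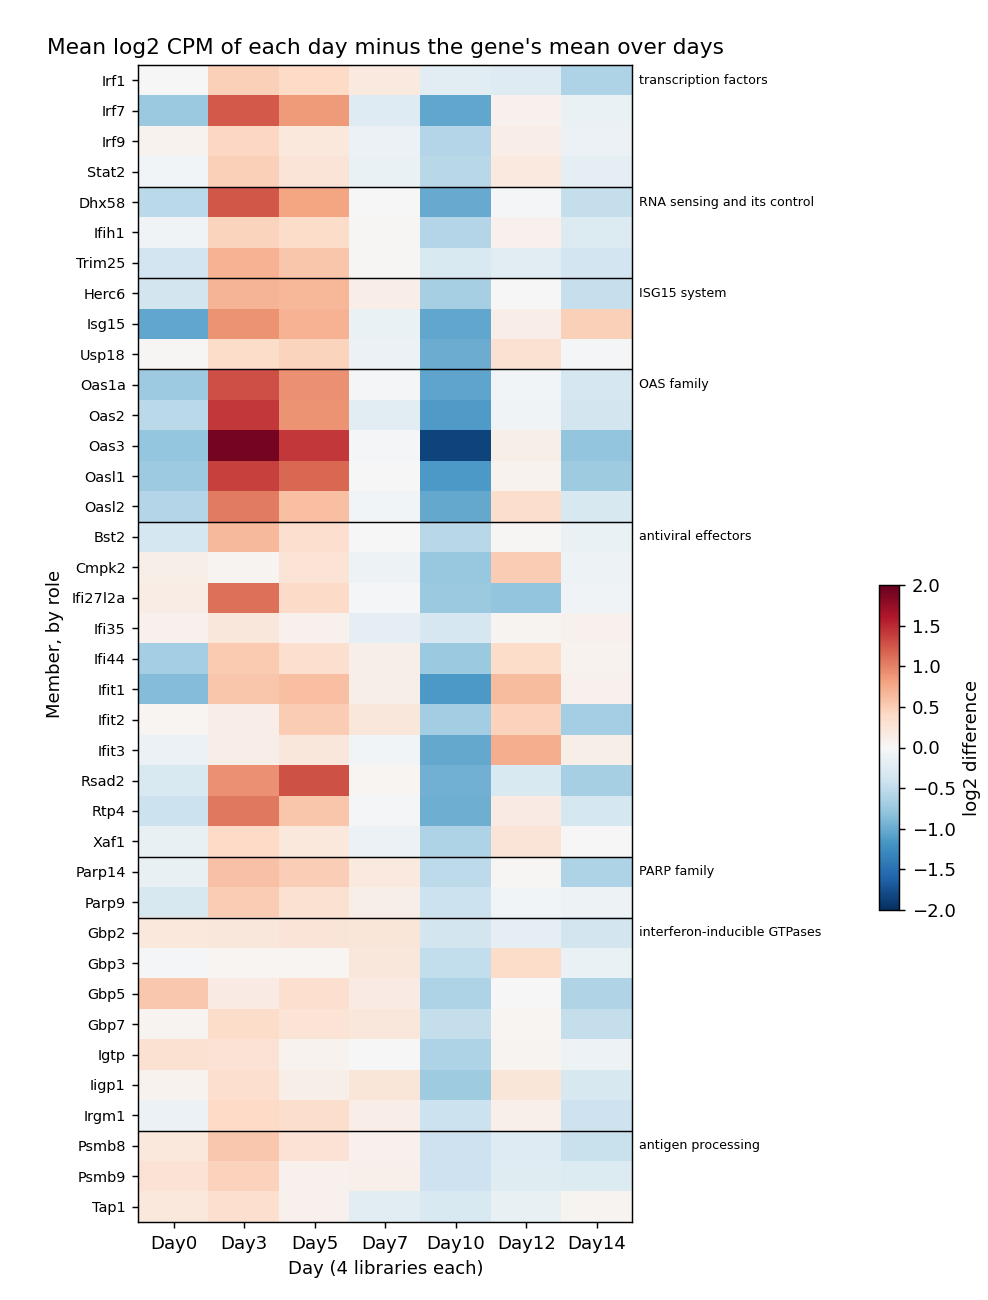
Mean log2 CPM of each of the 38 genes on each day (columns, 4 libraries each) minus the gene's mean over the 7 days, with genes in rows grouped by role and colour giving the log2 difference. Day3 and Day5 are high and Day10 is low for most genes, and Day12 is again above Day10 except in Irf1, Ifi27l2a and, by small steps, the antigen processing genes and Trim25.

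Against Day0, the quasi-likelihood test of edgeR, adjusted by Benjamini-Hochberg over 18107 genes, called 28 of 38 genes higher on Day3 (adjusted p under 0.05), where 31.8% of all genes tested were called higher. It called 1 lower, Gbp5 (background 34.8%). The median log2 fold change was 0.52 over the 38 genes and -0.03 over all genes tested, and in 26 genes all 4 Day3 libraries lay above all 4 Day0 libraries (28.2% of all genes). On Day5, 25 were higher (background 29%) and 1, Psmb9, was lower (30.6%), with a median of 0.43. The call for Gbp5 ended without Day0 library 4 or without Day3 library 1, 2 or 3 (0 lower). The Day5 count of lower genes was 0 without Day0 library 4 or Day5 library 1 or 3, and 4 without Day0 library 2 or 3. On Day7, 13 were higher (25.6%) and 7 lower (24.8%), with a median of 0.17. These Day7 counts became 8 higher without Day0 library 2 or 3 and 1 lower without Day0 library 4, and 4 lower without Day7 library 1 or 2.

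On Day10, 31 of the 38 genes were lower than on Day0 (background 26.9%) and 0 were higher (23.5%), with a median log2 fold change of -0.58. No gene was higher at an unadjusted p under 0.05 either, and DESeq2 called 0 higher, but limma-voom with sample quality weights called 3 higher, with Irf7 at 0.55 (adjusted p = 0.00679) and Isg15 at 0.50 (adjusted p = 0.00582). On Day12, 17 were higher (21.7%) and 7 lower (25.6%), with a median of 0.27. On Day14, 4 were higher (28.2%), namely Ifi44, Ifit1, Isg15 and Parp9, and 15 were lower (34.5%), with a median of -0.17. Without Day0 library 1 the Day14 count of higher genes was 12, and without Day0 library 4 the counts were 7 higher and 9 lower. With Day0 libraries 1 and 4 both left out, 34 genes were higher on Day3, 31 on Day5 and 26 on Day7, and on Day10 20 were lower and 5 higher. With libraries 2 and 3 left out instead, 27, 22 and 5 were higher on these 3 earlier days, and on Day10 37 were lower and 0 higher. With either pair most of the genes were thus higher on Day3 and Day5, and more were lower than higher on Day10, while on Day7 and on Day14 the balance of calls turned with the pair used (26 higher and 2 lower against 5 and 15 on Day7, 17 and 11 against 3 and 23 on Day14). On Day12 it turned as well, from 26 higher and 4 lower to 8 and 10. The pairs were picked after it had been seen that many of these genes were high in libraries 1 and 4 and low in 2 and 3. Leaving out the high pair raises the fold changes of those genes, and leaving out the low pair lowers them. The direction of the turns was thus fixed by that choice, and they are no test. All 6 comparisons share the Day0 libraries.

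Libraries of a wound day differed less than those of Day0, although some stood apart. The median chi-square between pairs of libraries, over genes, was 5.00 to 5.43 for Day5 library 4 against 1.48 to 1.65 among the other 3. It was 3.43 to 3.82 for Day7 library 4 against 1.84 to 1.97, and 3.50 to 3.75 for Day14 library 3 against 1.75 to 2.42. From Day3 to Day5, 2 genes were higher (Ifit2 and Rsad2, background 12.9%) and 7 lower (11.4%), and the 2 became 0 without Day3 library 1 and 1 without Day3 library 3. From Day5 to Day7, 25 were lower (14.6%; 21 without Day5 library 4 and 25 without Day7 library 4) and 0 higher (13.9%, none at an unadjusted p under 0.05, and 0 by DESeq2). From Day7 to Day10, 36 of 38 were lower (18%), with a median log2 fold change of -0.72 against 0.00 over all genes (-3.08e-04), and 0 were higher (14.3%, none at an unadjusted p under 0.05, and 0 by DESeq2). The 2 not called were Ifi35 (-0.13) and Tap1 (-0.10). From Day10 to Day12, 31 were higher (18.7%), with a median of 0.73, and 0 were lower (20.7%, none at an unadjusted p under 0.05, and 0 by DESeq2). From Day12 to Day14, 23 were lower (25.3%), with a median of -0.35, and 1, Ifi27l2a, was higher (19.9%), and 24 were lower without Day14 library 3. The fall to Day10 and the rise to Day12 share the Day10 libraries. In a fit of the 24 wound-day libraries alone, 36 genes were lower on Day10 than on Day7 and 33 higher on Day12 than on Day10, but 20 were lower on Day5 than on Day3.

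**Figure D2:**
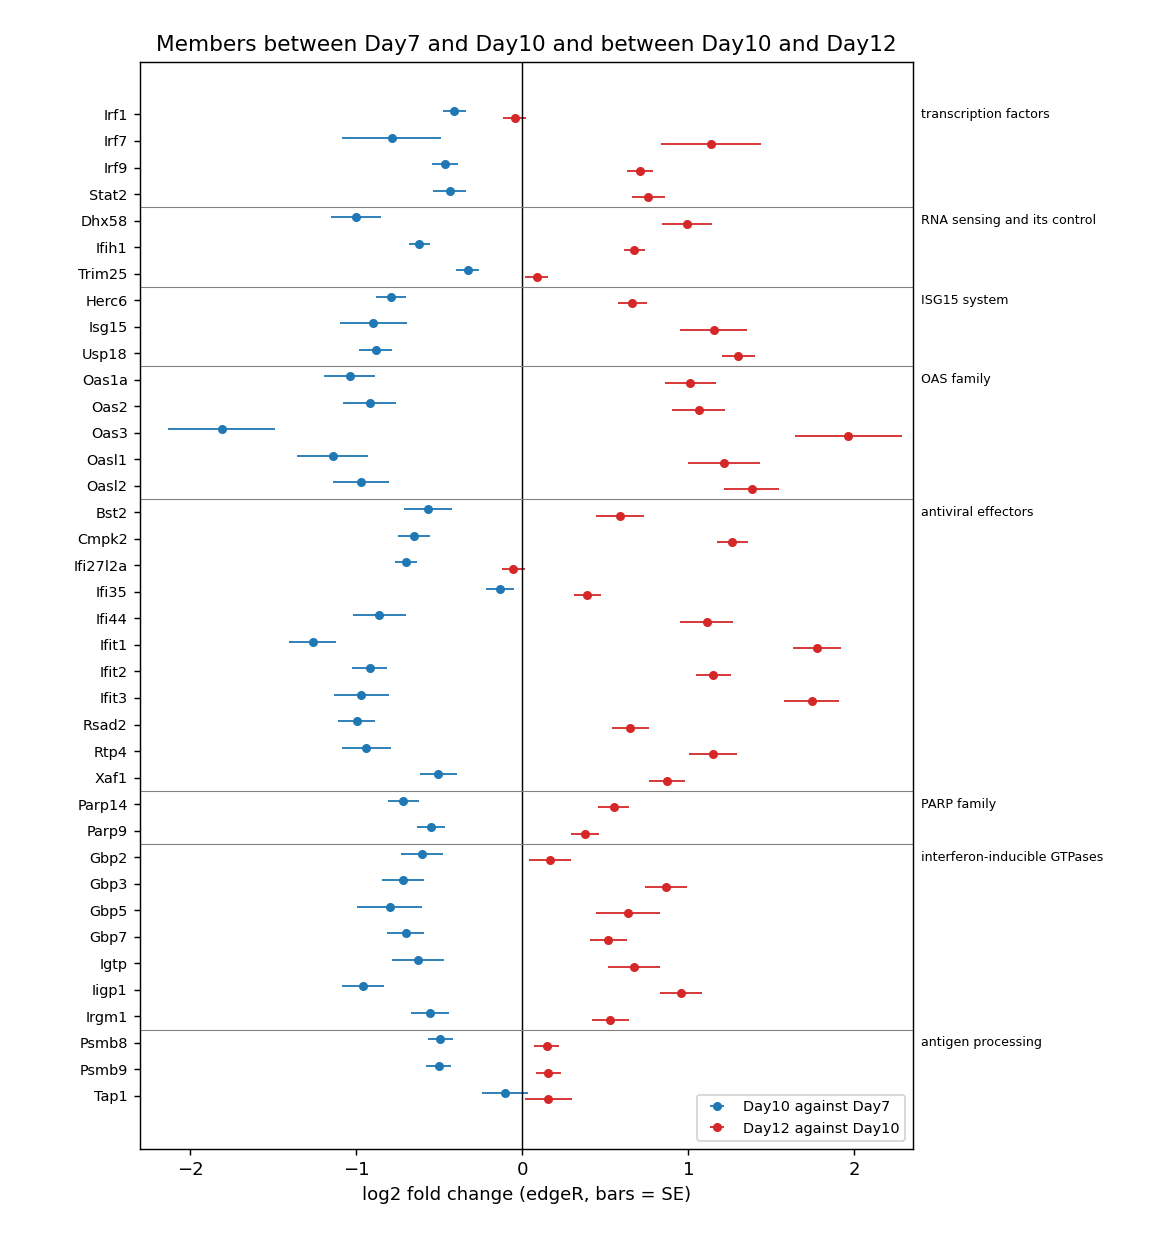
log2 fold change of each of the 38 genes (rows, by role) on Day10 against Day7 (blue) and on Day12 against Day10 (red), from the edgeR fit of 28 libraries, with bars of 1 SE. The blue points lie left of 0 throughout, down to -1.81 for Oas3, and the red points reach 1.96 for Oas3 while Irf1, Ifi27l2a, Trim25, Gbp2, Psmb8, Psmb9 and Tap1 lie near 0.

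Of the transcription factors, Irf7, a regulator that amplifies type I interferon production, varied most. It measured 124, 24.1, 27.3 and 113 CPM in the Day0 libraries and 196, 223, 220 and 226 CPM on Day3. It measured 47.8, 42.5, 48.1 and 41.7 CPM on Day10 and 111, 91.0, 90.2 and 104 CPM on Day12. All Day3 libraries were above all Day0 libraries, but Day10 and Day12 lay between the low and the high pair of Day0 libraries. Irf7 rose on Day3 (log2 fold change 1.59 ± 0.30 SE, n = 4 and 4, edgeR adjusted p = 4.12e-05) and from Day10 to Day12 (1.13 ± 0.30, adjusted p = 0.00333). Its fall from Day7 to Day10 (-0.79 ± 0.30, adjusted p = 0.0442) lost its call without any 1 of the 8 libraries of those days, at -0.82 to -0.75 (adjusted p 0.0572 to 0.097). The difference between Day10 and Day0 was -0.68 (adjusted p = 0.0604), and it was 0.81 without Day0 libraries 1 and 4 (adjusted p = 3.33e-09).

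Stat2 and Irf9 encode parts of the complex that binds the ISRE. Stat2 measured 57.2, 41.8, 43.8 and 68.4 CPM on Day0, 75.6, 79.8, 70.9 and 71.8 on Day3, 37.7, 34.1, 37.5 and 36.4 on Day10 and 63.4, 58.2, 62.6 and 61.9 on Day12. Irf9 measured 58.8, 42.5, 48.0 and 57.2 CPM on Day0, 67.5, 63.4, 64.3 and 62.4 on Day3, 31.9, 33.4, 32.3 and 32.2 on Day10 and 56.9, 53.4, 49.2 and 52.5 on Day12. In both genes the Day10 libraries were below those of every other day, and the Day12 libraries overlapped those of Day0. Both rose on Day3 (0.50 ± 0.10 for Stat2, adjusted p = 7.58e-05, and 0.32 ± 0.08 for Irf9, adjusted p = 5.71e-04) and from Day10 to Day12 (0.76 ± 0.10, adjusted p = 5.72e-07, and 0.71 ± 0.08, adjusted p = 2.06e-08).

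Irf1, a factor induced strongly by interferon gamma, took another course. It measured 52.6, 57.0, 57.2 and 70.1 CPM on Day0 and 78.6, 82.5, 80.7 and 81.2 on Day3. It measured 51.6, 47.6, 52.5 and 50.3 CPM on Day10, 49.5, 47.7, 48.9 and 49.6 on Day12 and 36.8, 35.5, 38.5 and 42.5 on Day14. Day10 and Day12 overlapped, and Day14 was below every other day. It rose on Day3 (0.45 ± 0.07, adjusted p = 2.28e-06), differed by -0.05 ± 0.07 between Day12 and Day10 (adjusted p = 0.642) and fell from Day12 to Day14 (-0.35 ± 0.07, adjusted p = 1.67e-04). Its GAS match is in the stretch shown above.

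Of the genes of RNA sensing, Dhx58 encodes LGP2, a helicase that modulates the RNA sensors, and Ifih1 encodes MDA5, a sensor of long double-stranded RNA. Dhx58 measured 17.5, 7.93, 8.42 and 12.8 CPM on Day0, 38.7, 39.9, 36.9 and 36.1 on Day3, 7.63, 8.18, 8.28 and 7.92 on Day10 and 16.3, 13.9, 15.4 and 18.0 on Day12. Ifih1, the most even of the 38 genes on Day0, was at 39.9, 40.8, 40.5 and 39.6 CPM, and measured 55.1, 58.9, 61.5 and 54.4 on Day3, 27.5, 25.7, 30.1 and 28.6 on Day10 and 45.2, 41.4, 48.0 and 44.1 on Day12. The Day3 libraries of both were above all of Day0, and the 4 Day12 libraries of both were above all of Day10. Dhx58 rose by 1.70 ± 0.15 on Day3 (adjusted p = 6.7e-11) and by 0.99 ± 0.15 from Day10 to Day12 (adjusted p = 5.12e-06), and Ifih1 by 0.52 ± 0.06 (adjusted p = 5.52e-08) and 0.67 ± 0.06 (adjusted p = 1.98e-09). Trim25, a ubiquitin ligase of the RIG-I pathway, rose by 1.08 on Day3 but differed by 0.09 between Day12 and Day10, which was not called.

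The ISG15 system attaches a small ubiquitin-like protein to others. Isg15, which encodes that protein, measured 26.1, 9.22, 8.11 and 18.1 CPM on Day0, 47.8, 52.7, 52.0 and 56.6 on Day3, 14.6, 11.8, 15.7 and 13.1 on Day10, 32.2, 30.6, 28.2 and 31.8 on Day12 and 36.1, 37.1, 40.8 and 42.3 on Day14. Its Day14 libraries were above those of Day12 and Day0, a difference of 0.35 ± 0.19 from Day12 (adjusted p = 0.15) and a rise of 1.35 ± 0.20 from Day0 (adjusted p = 1.55e-06). Usp18, which encodes the protease that removes ISG15 and restrains the type I receptor, measured 16.0, 19.2, 18.2 and 14.6 CPM on Day0, 22.2, 20.8, 21.6 and 21.5 on Day3, 9.07, 8.62, 7.69 and 8.34 on Day10 and 23.3, 18.3, 20.1 and 21.4 on Day12. Day0 libraries 1 and 4 were here the lowest of Day0, unlike in Irf7 and Isg15. Usp18 rose by 0.34 ± 0.10 on Day3 (adjusted p = 0.0031) and by 1.30 ± 0.10 from Day10 to Day12 (adjusted p = 3.25e-11).

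The OAS family is known for making 2′-5′ oligoadenylates that activate RNase L, although not every member does so. All 5 genes were higher on Day3 (31.8% of all genes) and on Day5 (29%), and all 5 were lower on Day10 than on Day0 (26.9%) and than on Day7 (18%). The medians of 1.92 on Day3 and 1.21 from Day10 to Day12 compare with 0.52 and 0.73 over the 38 genes. Oas3 measured 19.3, 3.59, 3.24 and 12.2 CPM on Day0, 42.5, 50.3, 47.3 and 46.3 on Day3, 2.87, 3.92, 3.58 and 3.42 on Day10 and 13.9, 13.0, 12.8 and 14.2 on Day12. Its Day3 mean was 13.5 times its Day10 mean, while Ifi35, at the other end of the 38 genes, spanned 1.47-fold between its highest and lowest day. Oas3 rose by 2.28 ± 0.30 on Day3 (adjusted p = 1.71e-07) and by 1.96 ± 0.32 from Day10 to Day12 (adjusted p = 1.55e-05). On Day10 it was lower than on Day0 by edgeR (-1.47 ± 0.32, adjusted p = 4.18e-04), but the difference was 0.02 (adjusted p = 0.928) without Day0 libraries 1 and 4, whose Oas3 levels were the 2 highest of Day0.

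Oasl2, the family member with the smallest rise on Day3, measured 76.3, 30.9, 33.3 and 65.4 CPM on Day0, 141, 148, 145 and 149 on Day3, 35.0, 32.4, 36.5 and 36.2 on Day10 and 99.4, 86.4, 88.5 and 90.4 on Day12. All its Day12 libraries were above all of Day0. It was called lower on Day10 than on Day0, but in 16 of 23 alternatives only, not without Day0 library 1 (-0.30, adjusted p = 0.0831), and it was at 0.13 without Day0 libraries 1 and 4 (adjusted p = 0.154). It rose by 1.5 ± 0.17 on Day3 (adjusted p = 8.49e-09) and by 1.38 ± 0.17 from Day10 to Day12 (adjusted p = 1.64e-07). Oas1a and Oasl1 have close relatives in the mouse genome, so that reads of near-identical copies may have been shared in their counts.

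Among the antiviral effectors, 7 of 11 were higher on Day3 (31.8% of all genes), 10 of 11 were lower on Day10 than on Day7 (18%) and 10 of 11 were higher on Day12 than on Day10 (18.7%). Rtp4, a protein that restricts flaviviruses, measured 45.5, 23.9, 24.4 and 45.1 CPM on Day0, 87.6, 93.7, 91.6 and 96.3 on Day3, 24.5, 20.4, 24.7 and 20.6 on Day10 and 55.6, 48.8, 48.7 and 46.9 on Day12. Cmpk2, a mitochondrial nucleotide kinase whose gene neighbours Rsad2, measured 18.8, 15.5, 18.2 and 17.7 CPM on Day0, 14.8, 17.5, 16.7 and 18.7 on Day3, 9.45, 9.27, 9.43 and 10.3 on Day10 and 25.3, 23.2, 23.6 and 20.3 on Day12. The Day3 libraries of Cmpk2 overlapped those of Day0, and its Day12 libraries were above those of Day0. Rtp4 rose by 1.41 ± 0.15 on Day3 (adjusted p = 1.93e-09), whereas Cmpk2 differed by -0.05 ± 0.09 (adjusted p = 0.633). Both rose from Day10 to Day12, by 1.15 ± 0.15 (adjusted p = 3.67e-07) and 1.26 ± 0.09 (adjusted p = 2.07e-11).

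The IFIT proteins bind viral RNA, and the genes Ifit1 and Ifit3, with Ifi27l2a, were singled out after their values were seen. Ifit1, whose upstream stretch holds 2 ISRE matches, measured 17.4, 13.6, 12.8 and 13.5 CPM on Day10 and 50.3, 48.8, 50.2 and 47.1 on Day12, a rise of 1.78 ± 0.14 (adjusted p = 9.09e-11). Ifit3 measured 25.5, 23.2, 22.6 and 25 CPM on Day10 and 85.8, 76.2, 82.7 and 78.2 on Day12, a rise of 1.74 ± 0.17 (adjusted p = 1.81e-09). For Ifit3 the Day12 libraries were above every library of every other day, at 150% of the Day3 mean, and its difference between Day3 and Day0 was 0.15 ± 0.16 (adjusted p = 0.427). A near-identical copy of Ifit3 exists in the mouse, so its count is uncertain.

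Ifi27l2a encodes a small hydrophobic protein and had the highest level per length of the 38 genes, with a mean of 390 FPKM (fragments scaled to gene length and library total) over the 7 days against 2.81 FPKM for Herc6, the lowest. It measured 631 to 726 CPM on Day3, 188 to 194 CPM on Day10, 182 to 187 CPM on Day12 and 290 to 327 CPM on Day14. Day12 was not higher than Day10 in this gene (-0.05 ± 0.07, adjusted p = 0.562), and it rose from Day12 to Day14 (0.72 ± 0.07, adjusted p = 1.95e-09), the 1 gene called higher there. In 3 of the 38 genes, Isg15 among them, all Day14 libraries were above all Day12 libraries, and 3 were called higher by limma-voom, in the fit of the wound days alone and in that of the 8 libraries alone.

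Parp9 and Parp14 encode ADP-ribosylating enzymes linked to interferon signalling. Parp9 measured 54.3, 38.7, 39.8 and 56.2 CPM on Day0, 79.6, 82.8, 81.8 and 85.6 on Day3, 44.5, 41.5, 44.2 and 42.5 on Day10 and 60.7, 56.1, 56.2 and 51.2 on Day12. Parp14 measured 72.4, 75.0, 64.4 and 95.5 CPM on Day0, 125, 129, 134 and 122 on Day3, 57.8, 57.1, 64.3 and 56.1 on Day10 and 88.0, 79.4, 88.8 and 88.5 on Day12. Day3 was above Day0 and Day12 above Day10 in all libraries of both genes. On Day5 Parp14 was at 93.9 CPM in library 4, the library that stood apart, and at 123 to 132 CPM in the others. The 2 genes rose by 0.80 ± 0.08 (adjusted p = 1.85e-09) and 0.73 ± 0.09 (adjusted p = 9.31e-08) on Day3 and by 0.38 ± 0.08 (adjusted p = 5.65e-04) and 0.55 ± 0.09 (adjusted p = 2.55e-05) from Day10 to Day12.

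**Figure D3:**
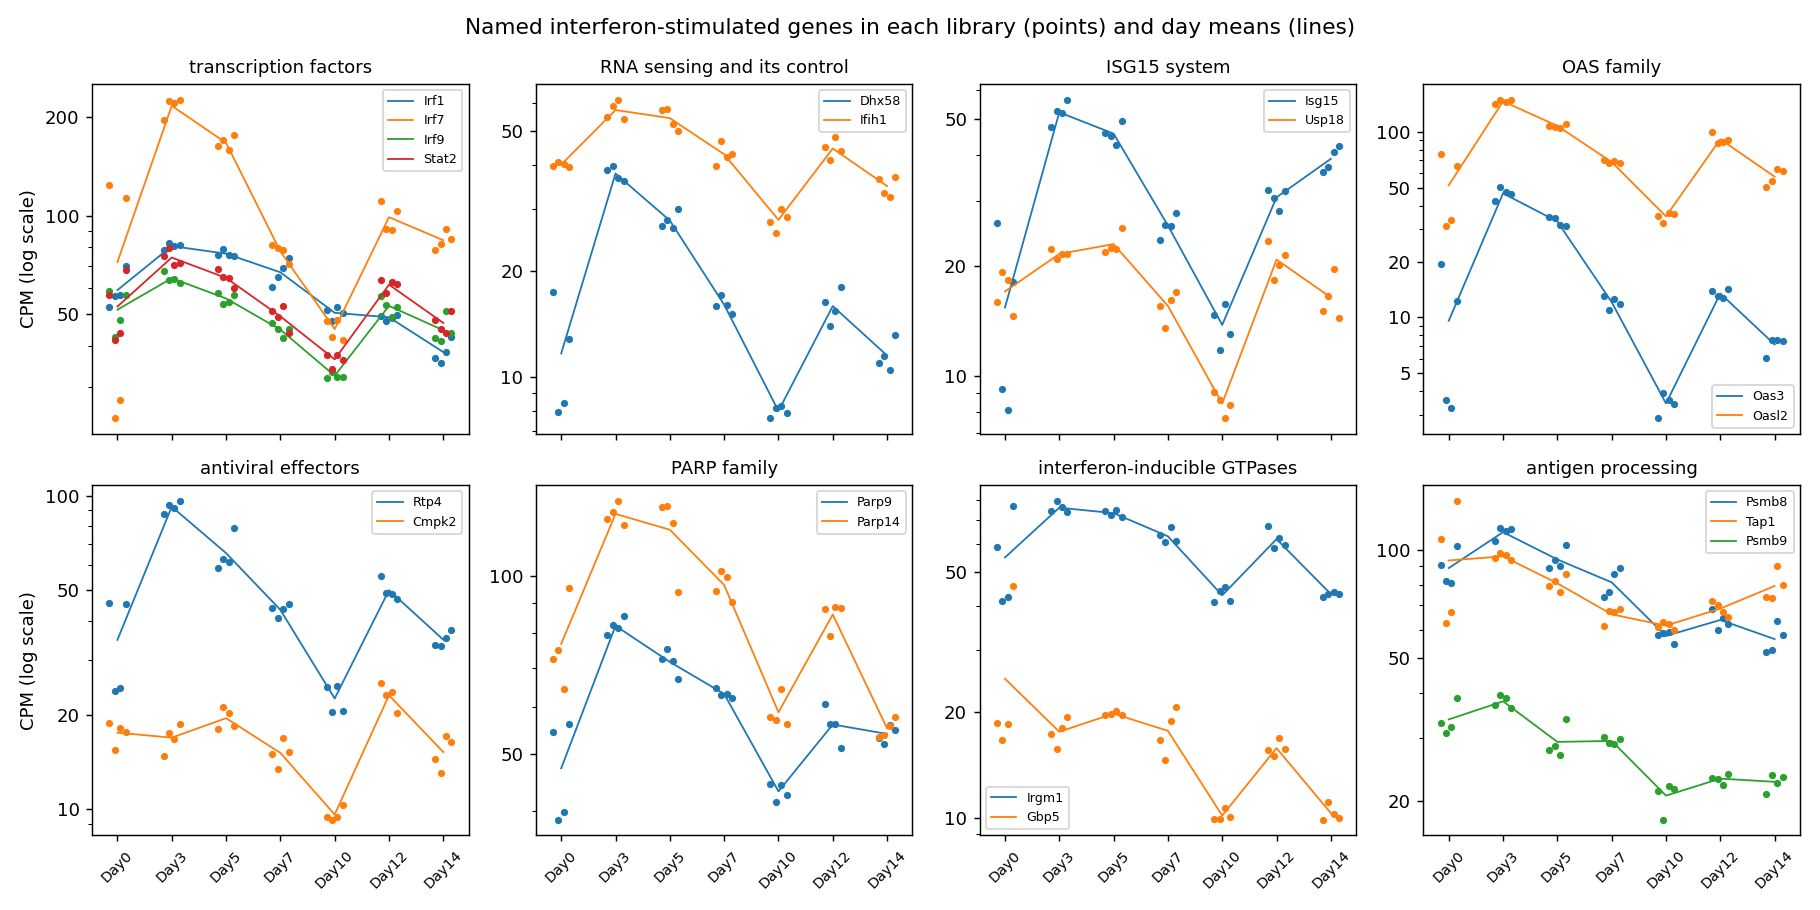
CPM (log scale) of the 19 genes named by the rule, in 8 panels by role, with the 4 libraries of each day as points and the day means as lines. The Day0 points of Irf7, Oas3 and Isg15 are spread widely (24.1 to 124 CPM for Irf7), while those of the wound days lie close together, and the lines of most genes dip on Day10 and return on Day12.

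The interferon-inducible GTPases act against intracellular pathogens. On Day3, 2 of 7 were higher (Gbp7, Irgm1), near the 31.8% of all genes, and 1 was lower, with a median log2 fold change of 0.00 (1.16e-03). On Day10 7 of 7 were lower, both against Day0 (26.9% of all genes) and against Day7 (18%), and 6 of 7 were higher on Day12 than on Day10 (18.7%). Irgm1, a regulator of autophagy, measured 58.9, 41.3, 42.3 and 76.9 CPM on Day0, 74.3, 79.4, 76.2 and 74.0 on Day3, 41.1, 44.0, 45.1 and 41.1 on Day10 and 67.3, 58.3, 62.2 and 59.5 on Day12. Its Day3 libraries overlapped Day0 through Day0 library 4, and the rise was 0.47 ± 0.11 (adjusted p = 6.13e-04). From Day10 to Day12 it rose by 0.53 ± 0.11 (adjusted p = 4.18e-04). Irgm1 on Day10 against Day0 was called in 16 of 23 alternatives only, and was at 0.04 without Day0 libraries 1 and 4 (edgeR adjusted p = 0.646).

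Gbp5, which promotes inflammasome assembly, measured 18.6, 16.6, 18.5 and 45.6 CPM on Day0, 17.3, 15.7, 18.0 and 19.3 on Day3, 9.95, 9.94, 10.7 and 10.1 on Day10 and 15.6, 15, 16.8 and 15.7 on Day12. Day0 library 4 stood far above the other 3, which overlapped Day3. The difference between Day3 and Day0 was -0.50 ± 0.19 (adjusted p = 0.0233) and 0.02 without Day0 library 4 (adjusted p = 0.847). Gbp5 was called lower on Day10 than on Day0 in all 23 alternatives run on all genes, from -1.66 to -0.79, the fit without that library among them. Gbp2, singled out after its values were seen, was the GTPase not called on Day12 against Day10 (0.17 ± 0.13, adjusted p = 0.328), although its upstream stretch holds an ISRE match. In the fit of the wound days alone it was called higher (0.16, adjusted p = 0.0156). Members of the Gbp family share sequence, and the assignment of reads between them is uncertain.

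Psmb8 and Psmb9 encode subunits of the immunoproteasome, which cuts peptides for MHC class I, and Tap1 a subunit of the transporter that carries them. Psmb8 measured 90.8, 81.7, 80.7 and 102 CPM on Day0, 105, 115, 113 and 114 on Day3, 57.9, 58.8, 59.0 and 54.6 on Day10 and 68.3, 60.0, 64.6 and 62.2 on Day12. Psmb9 measured 33.0, 31.0, 32.2 and 38.9 CPM on Day0, 36.9, 39.5, 38.8 and 36.4 on Day3, 27.8, 28.5, 26.8 and 33.9 on Day5, 21.4, 17.8, 22.1 and 21.6 on Day10 and 23.3, 23.1, 22.3 and 23.9 on Day12. In both genes Day10 and Day12 were below all Day0 libraries. Tap1 measured 107, 62.7, 67.1 and 136 CPM on Day0, 94.8, 98.0, 96.7 and 93.5 on Day3, 60.9, 62.9, 62.3 and 59.9 on Day10 and 72.2, 70.2, 67.0 and 64.9 on Day12.

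Psmb8 rose on Day3 (0.33 ± 0.07, adjusted p = 3.06e-04), and Psmb9 rose by 0.17 ± 0.07 (adjusted p = 0.0496), called in 11 of 23 alternatives and lost without Day0 library 2 (0.13, adjusted p = 0.146) or 3 (0.15, adjusted p = 0.108). On Day5 Psmb9 was lower than on Day0 (-0.21 ± 0.07, adjusted p = 0.0193), also lost without Day0 library 4 (-0.12, adjusted p = 0.167) or Day5 library 1 (-0.18, adjusted p = 0.0633) or 3 (-0.15, adjusted p = 0.11). On Day3 Tap1 differed by 0.04 ± 0.14 (adjusted p = 0.821). From Day10 to Day12 the differences were 0.15 ± 0.07 (adjusted p = 0.121), 0.16 ± 0.08 (adjusted p = 0.103) and 0.16 ± 0.14 (adjusted p = 0.401), none of them called, although every Day12 library was above every Day10 library in each of the 3 genes. In edgeR fits of the 8 libraries of Day10 and Day12 alone all 3 were called higher (0.16, 0.17 and 0.17, adjusted p = 0.00549, 0.0368 and 0.00202). Psmb9 and Tap1 start next to each other on chromosome 17, in opposite directions, and their windows overlap.

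Relative to the Day3 mean, the median gene stood at 48.4% on Day10, 69.8% on Day12 and 58.5% on Day14. On Day12 the medians by role were 39.7% in the OAS family, 61.0% in antigen processing, 85.0% in the GTPases and 89.8% in the antiviral effectors. At the ends of the range, Ifi27l2a stood at 26.9% and Ifit3 at 150% on Day12, when 5 of the 38 genes were above their Day3 mean. The OAS family, with the largest median rise on Day3, stayed furthest below its Day3 level. Of the 5 genes above their Day3 mean, Ifit1 (106%) was called higher on Day3, and Ifit3, Cmpk2, Gbp3 and Ifit2 were not. A percent of the Day3 mean is by construction lower where the Day3 mean is high. The 15 genes with ISRE letters in a window had a median change of 0.68 from Day10 to Day12 (0.165 to 1.96) and the 15 without had a median of 0.71 (-0.0456 to 1.38), while the 9 genes with GAS letters had a median of 0.59 and the 21 without 0.87. These medians are descriptions with no test.

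The spread among Day0 libraries was itself large in these genes. The median coefficient of variation over the 38 genes was 29.4% on Day0 and 6.26% on a wound day, and in 30 genes the Day0 value was above that of every wound day. It was 80.2% for Oas3, 74.7% for Irf7, 57.4% for Oasl1, 55.8% for Gbp5 and 54.8% for Isg15, but 1.36% for Ifih1, 6.83% for Herc6 and 7.52% for Ifi27l2a. Irf7, Oas3, Isg15, Oasl2 and Rtp4 were high in Day0 libraries 1 and 4 and low in 2 and 3. The same libraries differed in fibroblast and muscle markers, given above, and in keratinocyte markers, which summed to 8574, 5701, 6088 and 9261 CPM. Whether tissue composition has a part in the spread was not tested.

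**Figure D4:**
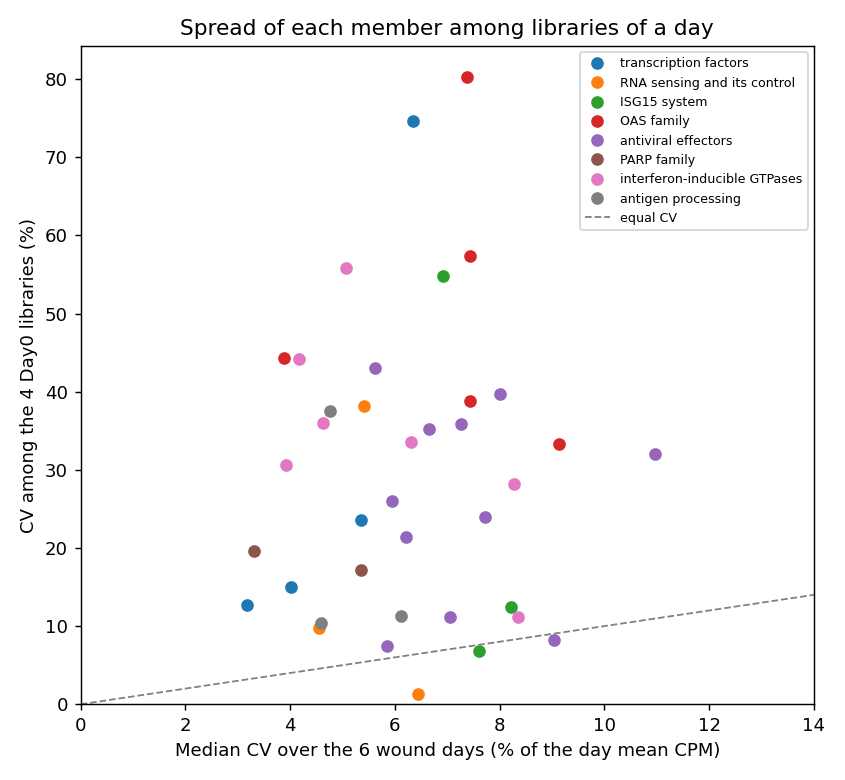
Coefficient of variation of each of the 38 genes among the 4 Day0 libraries (vertical axis, % of the day mean) against its median over the 6 wound days (horizontal axis), coloured by role, with a dashed line of equality. Most points lie far above the line, with Oas3 at 80.2% and Irf7 at 74.7%, and Ifih1 lies below it at 1.36%.

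Interferons themselves were scarcely counted. Of 21 interferon genes listed, 11 had a row and 0 passed the filter, and 3 had more than 3 counts in any library. Ifnk, a keratinocyte interferon, had at most 4 counts and Ifnz at most 6, both on Day0, while Ifnb1, the interferon beta gene, had at most 1. Ifng, the gene of interferon gamma, had 5, 6, 20 and 4 counts on Day0, 1, 1, 2 and 8 on Day3, 4, 4, 3 and 2 on Day10 and 3, 2, 7 and 2 on Day12. These counts overlapped between days, and a library with 0 counts can hold a level of up to 3 counts, so no change in any ligand was detectable at this depth.

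Of 6 receptor genes, 5 were higher and 1 was lower on Day3, where 31.8% and 34.8% of all genes were. Ifnar2, a chain of the type I receptor, had the largest rise, from 50.9 to 57.6 CPM on Day0 to 139 to 152 CPM on Day3 (1.45), and Ifnlr1, the type III receptor chain made mostly by epithelial cells, fell by 0.99, from 5.58 to 7.75 CPM to 2.64 to 3.99 CPM. From Day10 to Day12, 4 receptor genes were lower (20.7% of all genes), Ifnar2 at -0.46, and Ifnlr1 was higher by 0.84. Of 8 kinases and factors, 7 were higher on Day3 (31.8% of all genes), from Jak2 (1.01) to Tyk2 (0.27), and from Day10 to Day12 Irf8, a factor of myeloid cells, was lower (-0.23).

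All 13 nucleic acid sensors and adaptors were higher on Day3 (31.8% of all genes) and on Day5 (29%), from Myd88 (1.77 on Day3), the adaptor of most Toll-like receptors, to Mavs (0.17), the adaptor of the RNA helicases. On Day14, 12 of 13 were lower than on Day0 (34.5%). From Day10 to Day12, 4 were higher and 4 lower (18.7% and 20.7%). The 4 lower were Ikbke (-0.41), a kinase that activates interferon regulatory factors, Mavs (-0.23), the Toll-like receptor adaptor Ticam1 (-0.22) and Sting1 (-0.19), the adaptor of DNA sensing. The 4 higher, like them singled out after their values were seen, were Zbp1 (1.31), a sensor of left-handed nucleic acids that is itself inducible by interferon, Tlr9 (0.65), Ddx58 (0.45), the RIG-I gene, and Tlr3 (0.27). Zbp1 measured 15.9, 14.1, 17.0 and 13.8 CPM on Day10 and 43.2, 34.3, 37.7 and 35.6 on Day12, with no overlap.

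Of 7 negative regulators tested, 6 were higher on Day3 (31.8% of all genes), with Socs3, which blocks JAK activity after many cytokines, at 2.86 and Socs1 at 0.51, and from Day10 to Day12 4 were higher and 1, Socs3, was lower (-0.67), where 18.7% and 20.7% of all genes were. Of 6 further genes of the interferon gamma response tested, 5 were higher on Day3 (31.8%), with Nos2, the inducible nitric oxide synthase, at 3.40, and Ido1, a tryptophan-degrading enzyme, was lower (-2.50). Ido1 was at 0 to 1.84 CPM on Day0 and at most 0.272 CPM on Day3, close to the detection limit. Nos2 was highest on Day5, at 74.3 to 81.7 CPM. On Day12 against Day10, 2 of the 6 were higher, Ciita (0.64), the master regulator of MHC class II, and Cxcl9 (0.35), a chemokine for T cells. The 2 lower were Nos2 (-2.26) and Cd274 (-0.46), which encodes PD-L1. These shares are not far from the 18.7% and 20.7% of all genes.

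Cell type markers moved over the same days. Macrophage markers (8 genes) summed to 1662 to 2590 CPM on Day0, 5230 to 5447 CPM on Day3, 3505 to 3825 CPM on Day7, 2171 to 2397 CPM on Day10, 1815 to 2031 CPM on Day12 and 833 to 903 CPM on Day14. Neutrophil markers (7 genes) summed to 16.4 to 42.6 CPM on Day0, 4368 to 5512 CPM on Day3, 540 to 955 CPM on Day7, 222 to 247 CPM on Day10, 20.3 to 23.2 CPM on Day12 and 15.2 to 18.6 CPM on Day14. Both sums were high on Day3 and lower on Day10 than on Day7 with the 38 genes. On Day10 against Day7, 8 of 8 macrophage and 6 of 7 neutrophil markers were lower (18% of all genes). From Day12 to Day14, 8 of 8 macrophage and 4 of 7 neutrophil markers were lower (25.3%). Neither sum was higher on Day12 than on Day10. Gene by gene, 7 of 7 neutrophil markers were lower on Day12 than on Day10 (20.7% of all genes). Of the 8 macrophage markers, 3 were higher (18.7% of all genes), namely Ccr2 (0.59), Ly6c2 (1.20) and Mrc1 (0.47). The 3 lower were Lyz2 (-0.41), Cd68 (-0.46) and Itgam (-0.57), and Lyz2 made up most of the sum. T and NK cell markers (10 genes) summed to 58.0 to 65.3 CPM on Day7, 26.9 to 31.6 CPM on Day10, 39.8 to 46.0 CPM on Day12 and 18.0 to 26.2 CPM on Day14, low on Day10 and Day14 and higher on Day12, while on Day3 they were at 45.7 to 52.9 CPM, below Day7 and unlike the 38 genes.

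The plasmacytoid dendritic cell list (5 genes), named for the cells that make most type I interferon in blood, summed to 16.2 to 17.1 CPM on Day10, 25.5 to 28.8 CPM on Day12 and 28.7 to 33.5 CPM on Day14. Bcl11a, which is not limited to these cells, made up most of that sum. From Day10 to Day12 2 of the 5 genes were higher and 0 lower (18.7% and 20.7% of all genes). From Day12 to Day14 3 were lower and 1, Bcl11a, was higher (25.3% and 19.9%). Hair follicle markers (6 genes) summed to 808 to 1106 CPM on Day7, 159 to 190 CPM on Day10 and 3411 to 4632 CPM on Day12. They thus dipped on Day10 and returned on Day12 with the 38 genes. On Day3 they were at 2.73 to 8.71 CPM, unlike the 38 genes. They stayed at 3238 to 4328 CPM on Day14, when most of the 38 genes were lower again. Fibroblast markers summed to 52426 to 59638 CPM on Day10 and 39565 to 46045 CPM on Day12. Dendritic and Langerhans cell markers (5 genes) summed to 65.6 to 82.2 CPM on Day10, mostly from Itgax. Against Day7, Itgax was higher on Day10 (0.75) and 3 of the 5 genes were lower (14.3% and 18% of all genes). From Day10 to Day12 Cd207 (0.89) and Flt3 (0.91) were higher and Itgax was lower (-0.90), where 18.7% and 20.7% of all genes were. B cell markers (4 genes) were at most 5.85 CPM in any library. No gene of the lists named here was at 0 in all 4 libraries of a day, except 1 neutrophil gene on Day0 and on Day12. The part of any of these cell types in the changes of the 38 genes was not tested.

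**Figure D5:**
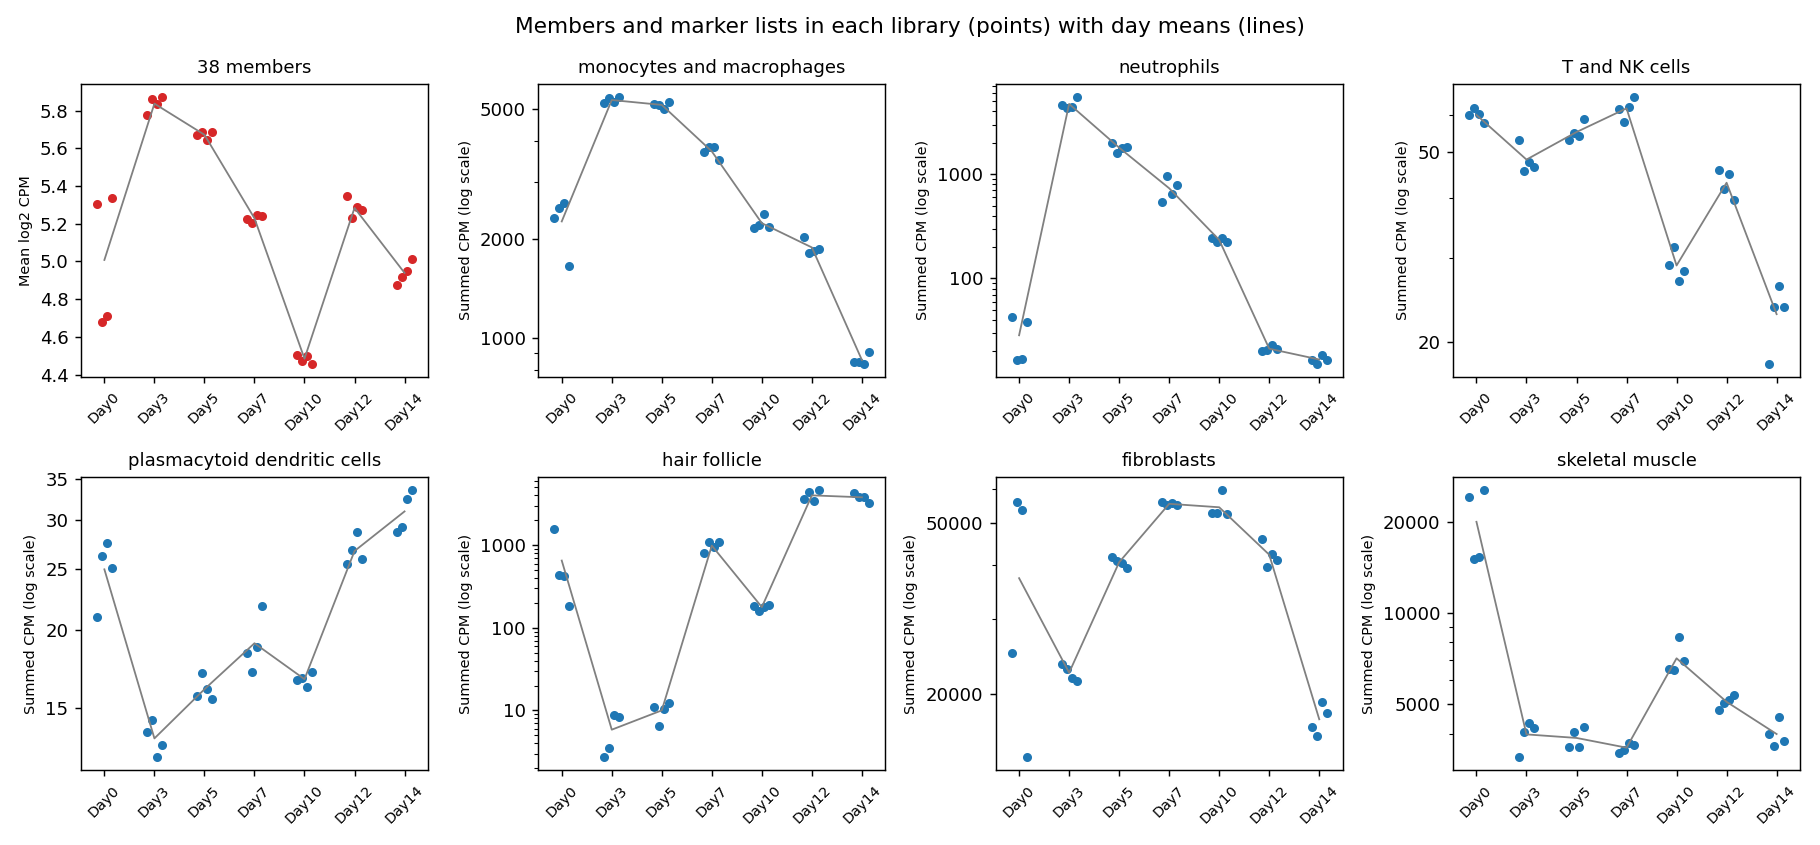
Mean log2 CPM of the 38 genes (red) and summed CPM of 7 marker lists (blue, log scale) in every library, with day means as grey lines. The 38 genes dip on Day10 (4.46 to 4.51) and return on Day12 (5.23 to 5.35), as T and NK cell markers and hair follicle markers do. The summed neutrophil and macrophage markers are lower on Day12 than on Day10.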

How the data were processed

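Reads of 28 wound-site libraries were counted on gene symbols by the authors, who deposited raw counts without normalization. The authors also deposited FPKM values (scaled to gene length and library total). Per the labels, fastp, R 3.2.0 and build mm10 were used, and the aligner, annotation and strand setting are not given in the sources used here, so overlapping genes may share reads. Raw counts went into edgeR 4.0.16 under R 4.3.3 (TMM factors, filterByExpr, the two-sided glmQLFTest, all 28 libraries, no covariate, 21 residual degrees of freedom), with Benjamini-Hochberg adjustment over 18107 genes, in place of the study's DESeq2, which was run as an alternative (DESeq2 1.42.0). The study's limit of 1.5 on log2 fold change was another alternative. CPM used TMM-scaled totals, and log2 CPM a prior count of 2. The exact two-sided permutation test of 4 libraries against 4 has a smallest p of 0.0286, reached wherever libraries did not overlap. SE is that of the log2 fold change. Alternatives added after values were seen were fits of the wound days alone, without pairs of Day0 libraries (picked after the genes' own Day0 values were seen) and of single genes between wound days. Members and lists were chosen with earlier results of these data known. Named were the 4 transcription factors, the members with the largest and smallest Day3 change in each other role, members lower on Day3 or Day5, per pathway list the called genes with the largest and smallest Day3 change, and ligands over 3 counts. The scripts were run on simulated counts. There edgeR called fewer of the strongly changed genes than first required, and the requirement was lowered after that result was seen. No value of that run is used here. Same-numbered libraries of different days deviated with correlations of -0.0762 to 0.177, over 0.1 in 1 of 84 pairs, so numbers were not taken to pair libraries. Libraries of a day differed by more than sampling noise (lowest median chi-square 1.48, 0.455 expected). Intervals and floors cover counting error only. Promoter windows came from RefSeq (GRCm38.p6). Values of some listed pathway genes are not reported here.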

Additional observations from a re-analysis of the deposited data

Results flagged for a closer look

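Among 133 groups of 4 libraries of 19 genes, 9 held a library whose gap to the nearest other, divided by the range of the group, was above the 95% critical value of Dixon's test for 4 values, where chance gives about 6.65 (1 in 20). On the log2 CPM scale, Gbp5 was at 5.51 in Day0 library 4 (others 4.06 to 4.22), at 4.33 in Day5 library 3 (4.30 in the others) and at 3.42 in Day10 library 3 (3.32 to 3.34). Irf1 was at 6.30 in Day5 library 2 (6.24 to 6.25). Usp18 was at 4.67 in Day5 library 4 (4.45 to 4.48). Oas3 was at 2.60 in Day14 library 1 (2.91 to 2.94). Parp14 was at 6.31 in Day12 library 2 (6.46 to 6.47). Tap1 was at 5.94 in Day7 library 1 (6.07 to 6.09), and Psmb9 at 4.16 in Day10 library 2 (4.43 to 4.47). The gap of Gbp5 on Day0, over 1 on the log2 scale, was the widest of these.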

How the results depend on the processing

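Between successive wound days, 213 counts under an alternative stayed within 1.5 times the reported count and 17 moved further. Against Day0, 216 stayed and 72 moved further. Of the values of single genes, 5285 kept their call, 407 lost a call, 222 gained a call and 43 reversed. A value counted as reversed where its sign changed and either value was called. Changes of sign with neither value called are among the 5285. The causes were not tested, beyond what the construction of an alternative shows.

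The limit of 1.5 on log2 fold change with an unadjusted p under 0.05 left 8 higher genes on Day3 and 5 on Day5 against Day0, 1 lower on Day10 against Day7, 3 higher on Day12 against Day10, and 0 in the other counts. Leaving out Day0 libraries 1 and 4, or 2 and 3, gave 34 or 27 higher and 0 or 6 lower on Day3, 31 or 22 and 0 or 7 on Day5, 26 or 5 and 2 or 15 on Day7, 5 or 0 and 20 or 37 on Day10, 26 or 8 and 4 or 10 on Day12, and 17 or 3 and 11 or 23 on Day14. These pairs were picked after the genes' own Day0 levels had been seen, so the direction in which the counts moved was fixed by that choice. Limma-voom with quality weights gave 0 lower on Day3, 25 higher and 3 lower on Day7, 3 higher on Day10, 4 lower on Day12, 15 higher on Day14, 22 lower on Day5 against Day3 and 3 higher on Day14 against Day12. The 8 libraries of a comparison alone gave 0 lower on Day3 and Day5, 5 higher and 2 lower on Day7, 8 higher and 4 lower on Day12, 8 lower on Day14, 19 lower on Day5 against Day3, 1 higher on Day7 against Day5 and 3 higher on Day14 against Day12. The wound-day libraries alone gave 20 lower on Day5 against Day3, 1 higher on Day7 against Day5 and 3 higher on Day14 against Day12. On Day5 against Day0, 2 were lower with upper quartile scaling, with no composition scaling, with at least 10 counts in every library and by DESeq2. Limma on log2(FPKM + 1) gave 27 higher and 3 lower on Day12 and 9 higher and 9 lower on Day14, the same with a pseudocount of 0.1. Without the filter it gave 0 lower on Day3, 26 higher and 3 lower on Day12 and 8 lower on Day14.

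Leaving out each library in turn gave, against Day0, 0 to 1 lower on Day3, 0 to 4 lower on Day5, 8 to 19 higher and 1 to 8 lower on Day7, and 3 to 12 higher and 9 to 17 lower on Day14, and 0 to 2 higher on Day5 against Day3. It gave 35 lower throughout on Day10 against Day7 and 31 higher throughout on Day12 against Day10. With the replicate number as a block, 36 were lower on Day10 against Day7, 31 higher on Day12 against Day10 and 14 higher on Day7 against Day0, and no count moved by over 1.5 times. The numbers were not shown to pair the libraries.

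Single genes reversed against Day0 as follows, in log2 fold change. Among the values given for pairs of Day0 libraries and for limma-voom, those of 0.13 or less in size were not called. There a called difference was lost, while the larger values were called. Without Day0 libraries 1 and 4, Gbp5 was at 0.0033 on Day3 and 0.012 on Day7, Gbp2 at 0.35 on Day3, 0.37 on Day5 and 0.36 on Day7, Ifit3 at 0.61 on Day7 and Stat2 at 0.21 on Day7. Tap1 was then at 0.32 on Day5, 0.030 on Day7, 0.083 on Day12 and 0.29 on Day14. On Day10 Irf7 was at 0.81, Isg15 at 0.67, Oas3 at 0.016, Oasl2 at 0.13 and Irgm1 at 0.038, and on Day14 Dhx58 at 0.49, Oas3 at 1.07 and Irgm1 at 0.049. Without Day0 libraries 2 and 3, Tap1 was at -0.30 on Day3, Ifit3 at -0.25 on Day3, -0.20 on Day5 and -0.24 on Day14, Irf7 at -0.61 on Day7, -0.25 on Day12 and -0.42 on Day14, Oas3 at -0.39 and Oasl2 at -0.046 on Day7, and Rtp4 at -0.31 and Oasl2 at -0.23 on Day14. By limma-voom, Irf7 was at 0.55 and Isg15 at 0.50 on Day10, Dhx58 at 0.40 and Oas3 at 0.81 on Day14, Ifit3 at 0.46 on Day7, and Gbp2 at 0.27 on Day3, 0.27 on Day5 and 0.28 on Day7. Leaving out each library in turn, Gbp5 on Day3 ranged from -0.65 (without Day0 library 2) to 0.021 (without library 4). Gbp2 ranged from -0.16 to 0.27 on Day3, from -0.14 to 0.26 on Day5 and from -0.15 to 0.24 on Day7, in each case lowest without Day0 library 3 and highest without library 4. Dhx58 on Day14 ranged from -0.12 (without Day0 library 2) to 0.32 (without library 1). Between successive wound days no named gene changed sign where either value was called. Depth limited the interferon genes, of which 0 passed the filter.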
